A study of Mus musculus with 2 samples.

Results

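The regions described here are the GATA4 peaks deep inside long protein coding genes in mouse skeletal muscle myoblasts. A peak was a member if its centre lay inside a protein coding gene and more than 1 kb from every end of any protein coding or lncRNA gene, and if the longest protein coding gene holding the centre spanned 200 kb or more. Of 17539 peaks, 2679 met this rule, which is 15.3%. A further 5164 peaks lay as deep inside shorter protein coding genes, 2408 lay within 1 kb of a gene end and 7288 lay elsewhere outside protein coding genes. The rule used positions only, not the score or the width of a peak.

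The peaks come from 1 chromatin immunoprecipitation sequencing (ChIP-seq) library made with a mixture of 3 GATA4 antibodies. A control IgG library was sequenced beside it, and its reads were not analysed here. Both libraries came from satellite cell-derived myoblasts of the strain STOCK Myf5tm1Pas/J, a stock with a targeted Myf5 allele, so the control shares that allele. The cells were kept in growth medium with 20% serum and 20 ng/ml basic fibroblast growth factor. There was 1 library per antibody, so no value below has an error between replicates and nothing was tested between libraries. The intervals given cover counting error only. The peak list measures no expression, so the identity of the cells was not checked here, and the read depth is unknown.

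GATA4 is a zinc finger transcription factor best known from the heart, where it binds GATA sequences in promoters and enhancers. Enhancers are stretches of DNA that act on a gene from a distance. Many lie in introns, and a long gene is nearly all intron. Long genes of muscle cells encode dystrophin-associated proteins, laminins, cytoskeletal linkers and giant sarcomere proteins. The longest genes of the genome are mostly known for roles in neurons. The annotation used gives gene ends but no exons, so whether a peak is exonic or intronic was not determined.

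A few of these peaks lay over annotated start sites inside a long gene. RefSeq (GRCm38.p6) lists 463 starts of long genes that are more than 1 kb from every gene end, in 316 genes. A member peak covered 16 of them, or 3.46% (95% exact binomial interval 1.99% to 5.55%). These 16 starts lay under 15 peaks in 15 genes. All 2679 members together cover 0.498% of the interior of long genes, counting also the genes without a listed start. Of 653 starts of long genes within 1 kb of a gene end, peaks covered 26, or 3.98% (2.62% to 5.78%). The 15 peaks scored 53.2 to 159 with a median of 83.1 on the authors' MACS score, and 10 of them were below the median of all members. The sequences below are the 150 bases just before such a start, 5′ to 3′ on the strand of the gene, all under the peak. They were picked after their values were seen: Tmcc3, Ltbp1, Hdac9, Stag1 and Pakap have the 5 highest scores, 159, 131, 130, 124 and 106, and Dst, Palld, Syne1 and Runx1 are shown because their genes recur below. Capitals mark matches on either strand. The motif for GATA factors was AGATAA, with its variants written AGATAG, then also TGATAA, and as the last form TGATAG. The AP-1 motif was TGANTCA, and that of TEAD factors was CATTCC. The E-boxes, of the kind that MyoD binds, were CAGCTG and the related form CACCTG. None of these motifs contains another.
Tmcc3, chr10:94550770-94550919, plus strand: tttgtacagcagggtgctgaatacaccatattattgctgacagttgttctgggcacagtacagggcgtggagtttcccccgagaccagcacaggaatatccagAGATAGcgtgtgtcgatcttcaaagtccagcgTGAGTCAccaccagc
Ltbp1, chr17:75178631-75178780, plus strand: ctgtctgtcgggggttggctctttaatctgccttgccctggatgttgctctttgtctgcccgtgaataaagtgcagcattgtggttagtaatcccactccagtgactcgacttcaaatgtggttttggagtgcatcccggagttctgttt
Hdac9, chr12:34528890-34529039, minus strand: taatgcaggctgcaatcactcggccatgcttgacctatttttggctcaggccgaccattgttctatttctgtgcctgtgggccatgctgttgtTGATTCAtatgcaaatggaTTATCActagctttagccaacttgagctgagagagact
Stag1, chr9:100643298-100643447, plus strand: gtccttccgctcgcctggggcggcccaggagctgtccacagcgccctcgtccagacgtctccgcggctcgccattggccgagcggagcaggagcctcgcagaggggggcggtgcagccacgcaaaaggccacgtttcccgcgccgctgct
Pakap, chr4:57567680-57567829, plus strand: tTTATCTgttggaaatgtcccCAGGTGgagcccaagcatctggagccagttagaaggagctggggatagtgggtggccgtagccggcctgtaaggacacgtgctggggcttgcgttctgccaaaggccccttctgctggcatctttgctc
Dst, chr1:34011445-34011594, plus strand: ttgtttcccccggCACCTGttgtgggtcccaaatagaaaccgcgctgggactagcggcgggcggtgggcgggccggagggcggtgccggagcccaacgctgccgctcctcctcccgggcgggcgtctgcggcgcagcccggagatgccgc
Palld, chr8:61591140-61591289, minus strand: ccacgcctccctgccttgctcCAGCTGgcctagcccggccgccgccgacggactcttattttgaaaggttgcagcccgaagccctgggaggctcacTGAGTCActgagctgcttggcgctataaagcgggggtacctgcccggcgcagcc
Syne1, chr10:5069064-5069213, minus strand: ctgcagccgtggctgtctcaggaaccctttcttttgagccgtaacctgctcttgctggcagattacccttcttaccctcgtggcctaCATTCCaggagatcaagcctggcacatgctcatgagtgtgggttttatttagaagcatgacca
Runx1, chr16:92697330-92697479, minus strand: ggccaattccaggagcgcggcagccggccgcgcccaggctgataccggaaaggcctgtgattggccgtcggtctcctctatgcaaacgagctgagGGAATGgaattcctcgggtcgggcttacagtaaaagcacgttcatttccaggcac

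The letters differed from start to start. Ltbp1 and Stag1 showed no match to any of the motifs. Tmcc3 and Hdac9 each showed a GATA and an AP-1 match, and Pakap showed a GATA match and an E-box. Dst showed an E-box alone, and Palld an E-box and an AP-1 match. Syne1 and Runx1 showed a TEAD match alone in this window. Over the full 300 bases listed per start, 6 of the 16 covered starts held a GATA match, or 37.5% (95% exact binomial interval 15.2% to 64.6%). Among all 32851 promoters of the table the share was 29.8%, and among the 463 inner starts it was 28.5%. AP-1 matches stood at 5 of 16 covered starts, or 31.2% (11.0% to 58.7%), against 7.81% of all promoters and 8.86% of inner starts. TEAD matches stood at 4 of 16, or 25% (7.27% to 52.4%), against 14.7% of all promoters and 17.3% of inner starts. E-boxes stood at 7 of 16, or 43.8% (19.8% to 70.1%), against 32.9% of all promoters and 36.5% of inner starts. The 2 covered starts of Tmcc3 lie under the same peak, and their windows overlap. The same GATA match and the same AP-1 match therefore count at both starts. The intervals treat all covered starts as independent, which these 2 are not. A match is only a string of letters and is no evidence of binding.

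Some members lay beside microRNA genes within the long genes. Of 88 microRNA hairpins inside long genes, 8 had a member peak within 5 kb. How much of the interior of long genes lies that close to a member was not computed. The count therefore cannot show whether members favour microRNA genes. Mir3092, on chromosome 3 in Fndc3b, lay under a peak with a score of 149 (chromosome 3, 27584436 to 27585431). Mir491, in Focad on chromosome 4, lay 0.008 kb from a peak with a score of 102 (88122133 to 88123311). Mir199a-2 lies in Dnm3 on chromosome 1, on the plus strand, while Dnm3 is on the minus strand. It lay 0.702 kb from a peak with a score of 110 (162218625 to 162219170), and Mir214 lay 4.20 kb from the same peak on its other side. Both are known as products of 1 transcript antisense to Dnm3, and miR-214 is known from muscle cell differentiation. Gm51273, in Nbea on chromosome 3, lay 0.033 kb from a peak with a score of 106 (55887372 to 55888717). The mature sequences of the 4 hairpins within 1 kb of a peak are shown because they identify the small RNAs encoded beside members, with the seed, bases 2 to 8, in capitals. No seed occurs in more than 1 of them.
mmu-miR-3092-5p: aGGGGAAAaugccuuucuccca
mmu-miR-3092-3p: gAAUGGGGcuguuuccccucc
mmu-miR-491-5p: aGUGGGGAacccuuccaugagg
mmu-miR-491-3p: cUUAUGCAagauucccuucuac
mmu-miR-199a-5p: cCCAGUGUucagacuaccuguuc
mmu-miR-199a-3p: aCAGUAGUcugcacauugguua
mmu-miR-12194-3p (Gm51273): uCUGUGGGucuguuuguccguc

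Peaks were less dense inside long genes as a whole than inside shorter ones, and by class this held only for spans over 400 kb against every shorter class. The interiors of long genes, meaning the parts more than 1 kb from any gene end, made up 413 Mb and held 6.49 peaks per Mb (95% Poisson interval 6.24 to 6.74). The interiors of shorter genes made up 563 Mb and held 9.17 peaks per Mb (8.93 to 9.43). The ratio was 0.707, with an exact interval of 0.674 to 0.741 for counting error. Density rose with span up to 10.2 per Mb in genes of 100 to 200 kb, and was 8.64 per Mb (8.20 to 9.09) at 200 to 400 kb. It was 6.22 per Mb (5.80 to 6.66) at 400 to 800 kb and 3.51 per Mb (3.17 to 3.88) at 800 kb or more. The interval of the 200 to 400 kb class overlapped those of genes under 25 kb (7.31 to 8.48), of 25 to 50 kb (8.18 to 9.26) and of 50 to 100 kb (8.66 to 9.58), and lay below that of 100 to 200 kb (9.70 to 10.6). The intervals of both classes over 400 kb lay below those of every shorter class.

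**Figure D1:**
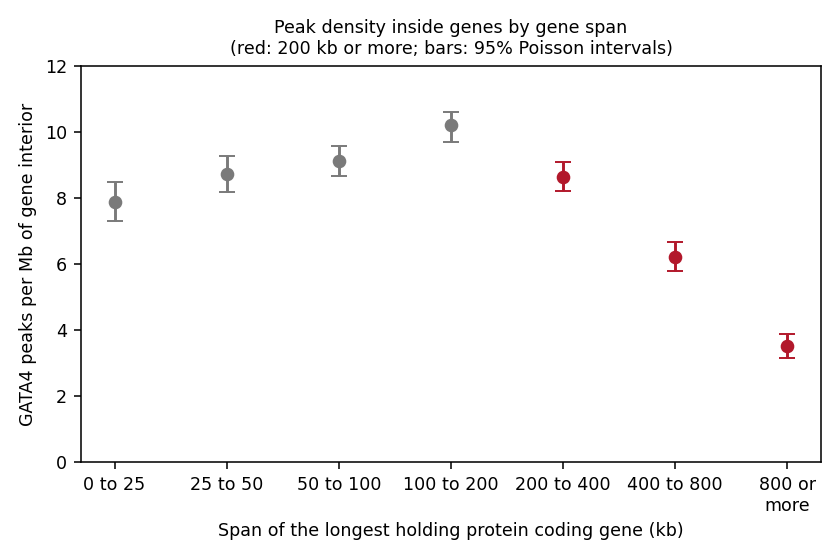
GATA4 peaks per Mb of gene interior (vertical axis) for 7 classes of the span of the longest holding protein coding gene in kb (horizontal axis), with 95% Poisson intervals for counting error. The density is highest at 100 to 200 kb (10.2 per Mb) and lowest at 800 kb or more (3.51 per Mb).

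At the limits of the rule, Plcxd3 (200095 bp), Pcbp3 (200264 bp), Pbx3 (200589 bp), Tspear (200887 bp) and Dnah12 (201166 bp) were the shortest genes included, with 0, 2, 1, 0 and 1 peaks. Atp9b (199941 bp), Sergef (199738 bp), Morc1 (199669 bp), Clec16a (199570 bp) and Bckdhb (199130 bp) were the longest left out, with 0, 1, 0, 4 and 4. The nearest peaks inside the distance limit lay in Stard13 and Dscam, 1012 and 1013 bp from a gene end, with scores of 65.0 and 84.1. Those in Nos1ap, Phldb2 and Nav1 followed up to 1106 bp. The nearest outside it lay in Ehbp1 and Fbxl17, at 983 and 979 bp, with scores of 76.9 and 124, then in Tacc2, Stard13 and Tcf4 down to 960 bp. In all, 87 peaks in long genes were left out as closer to a gene end.

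The MACS score is the authors' value for each peak and is compared only within this list. The median member scored 103, the lower quartile was 80.4, the upper 140, and the range was 50.1 to 861. Peaks inside shorter genes had a median of 98.4, peaks outside protein coding genes 106 and peaks within 1 kb of a gene end 86.7. The 95% intervals of the medians for long and shorter genes overlapped. Scores above 300 were found at 64 members, or 2.39%, against 1.55% in shorter genes, 2.66% outside protein coding genes and 0.997% at gene ends. The median width was 745 bp for members and 737 bp in shorter genes.

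Score and width were tied to each other. Of the members, 716 (26.7%) carried one of 13 exact scores that 50 or more peaks of the list share, such as 71.6, 84.1, 97.0 and 110. These were narrow, with a median width of 496 bp and quartiles of 420 and 546 bp. The other 1963 members had a median width of 811 bp with quartiles of 718 and 975 bp. Among these, the scores fell along parallel bands as width grew. This holds within a band only. Members scoring above the median of all peaks were wider, with a median of 794 bp against 745 bp for all members. Repeated scores made up 27.4% of peaks in shorter genes and 20.2% of peaks at gene ends. They made up 39.4% of the 33 members on chromosome X, 39.2% of members on chromosome 7 and 19.8% on chromosome 19. Without the repeated scores the median score was 101 for members and 95.8 in shorter genes. It was 102 outside protein coding genes and 85.4 at gene ends. What part the repeated scores have in any difference of scores was not tested.

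**Figure D2:**
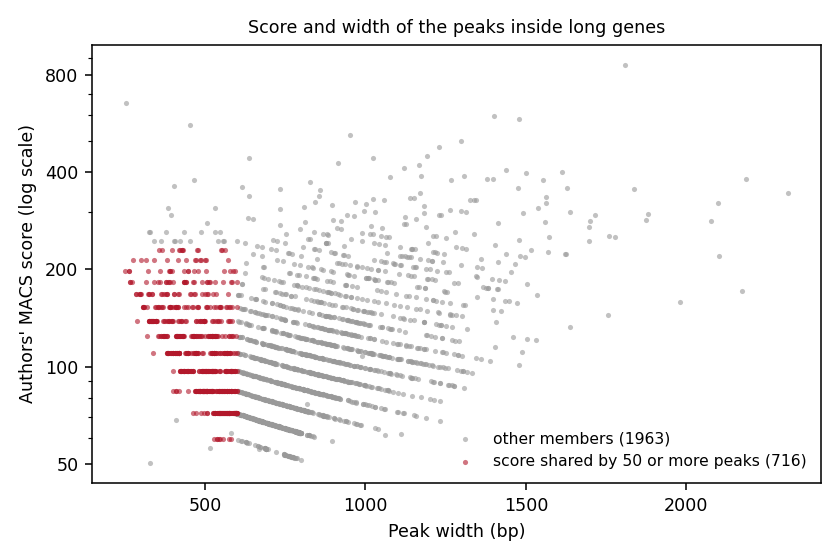
Width in bp (horizontal axis) and MACS score on a log scale (vertical axis) of the 2679 peaks inside long genes, with the 716 peaks whose exact score is shared by 50 or more peaks in red. The red points form horizontal lines at small widths, and the other 1963 points continue them as bands that fall with width.

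All of the 20 highest-scoring members were over 10 kb from any gene end, as were 85.5% of all members. Of the 20, 8 were over 100 kb away, against 24.7% of all members, and 6 were on chromosome 10, which held 9.15% of the members. Those in Esr1, Syne1 and Oprm1 all lay in 1 stretch of that chromosome, from 4622858 to 6840463. The highest of the 20, with a score of 861, lay in Oprm1, the mu opioid receptor gene (chromosome 10, 6838655 to 6840463), which held 3 members. Klhl1 followed with 657 (chromosome 14, 96351328 to 96351580). Syne1, encoding the nuclear envelope protein nesprin-1, had peaks of 597 and 398. Cdh2, encoding N-cadherin, had peaks of 585 and 387. Syn3, a synapsin gene, had one of 561 (chromosome 10, 86126429 to 86126880). These genes are known from different tissues. The peak in Pard3, a cell polarity gene, scored 520 (chromosome 8, 127257008 to 127257960). In Esr1, the estrogen receptor alpha gene, a peak with a score of 499 lay 11.5 kb from the 5′ end (chromosome 10, 4622858 to 4624156). Pakap, which joins a paralemmin and an A-kinase anchoring protein, had one of 477 (chromosome 4, 57797752 to 57798979). Itpr2, a receptor for inositol trisphosphate that releases stored calcium, had one of 450 (chromosome 6, 146120105 to 146121296). Those in Rnf220 and Tafa5 scored 443 and 442. The peak in Pde4d, a phosphodiesterase that breaks down cyclic AMP, scored 426 and lay 253 kb from any gene end (chromosome 13, 109693688 to 109694601). L3mbtl4, Anks1b and Cpq followed with 422, 412 and 405. Pdgfd, which encodes a platelet-derived growth factor, had a peak of 402 (chromosome 9, 6430204 to 6431817). Stard13, a gene of a GTPase-activating protein, and Lrmda had peaks of 390 each. The peaks of Klhl1 (253 bp) and Syn3 (452 bp) were narrow: the lower quartile of all members was 578 bp, and the other 18 measured 636 to 1809 bp. Klhl1 held no other member.

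Most long genes held at least 1 peak, and a small group held many. Of 990 long genes, 646 held a member, or 65.3% (95% exact binomial interval 62.2% to 68.2%), and 344 held none. A single member was found in 154 genes, 5 or more in 215 and 10 or more in 55. Those 55 genes held 700 members, or 26.1%. Length and number of peaks were weakly related. Of the 990 genes, 10 have no interior as the longest holder, so they could hold no member and count among the 344. Across the other 980 genes, of which 65.9% held a member, Spearman's rank correlation between interior length and number of peaks was 0.11, a description over genes that share 1 library. The 205 genes of 300 to 400 kb had a median of 2 peaks, and so did the 59 longest genes, of which 64.4% held a member.

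**Figure D3:**
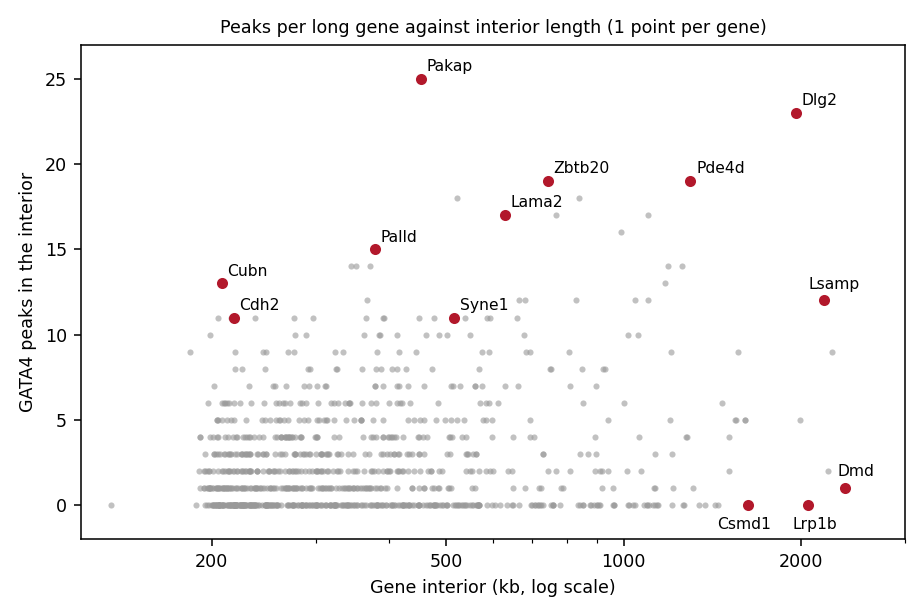
Number of GATA4 peaks (vertical axis) against interior length in kb on a log scale (horizontal axis) for 979 long genes, 1 point per gene, with some genes named in the text in red; 11 genes with an interior under 100 kb are not drawn. Pakap has 25 peaks in 453 kb, while Lrp1b has none in 2052 kb.

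Pakap held the most peaks, 25 in an interior of 453 kb, or 5.52 per 100 kb. Their scores ran from 62.3 to 477 and were spread from 3.60% to 93.2% along the gene. Next came Dlg2, a synaptic scaffold gene, with 23 in 1959 kb. Pde4d and Zbtb20, a zinc finger repressor gene, held 19 each. Dlgap1 and Nfia held 18 each. Nfia encodes a nuclear factor I protein, and all 18 of its peaks scored 144 or less. Anks1b, Lama2 and Nav3 held 17 each, Pard3b 16 and Palld 15. Aopep, Lingo2, Plcb4, Prkg1 and Stard13 held 14 each.

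**Figure D4:**
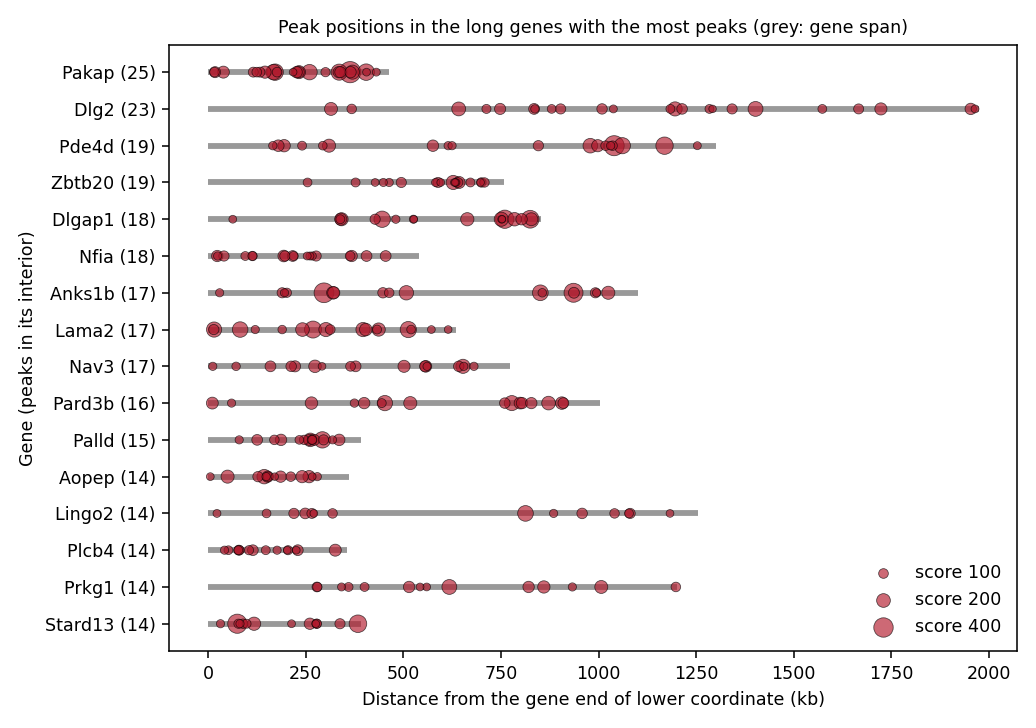
Peak centres (circles, area in proportion to the score) along the 16 long genes with the most peaks, drawn by distance in kb from the gene end of lower coordinate (horizontal axis), with the gene span in grey and the number of peaks in brackets. Peaks of Zbtb20 crowd toward one end of the gene, while those of Pakap and Dlg2 are spread along it.

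Among genes with at least 5 members, Cubn had the highest density, 13 peaks in 208 kb or 6.26 per 100 kb. Cubn encodes cubilin, an uptake receptor of kidney and gut. Pakap came next, then Chst11, a chondroitin sulfotransferase gene, at 5.35 per 100 kb. Further down, Cdh2 had 5.04 and Sdccag8 5.01. Rbm20, a splicing regulator of titin, had 9 peaks at 4.89 per 100 kb. Srgap2, Runx1 and Aopep followed at 4.63, 4.12 and 4.06. The median over long genes was 0.437 per 100 kb.

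The 10 longest genes held 0 to 23 peaks each, and 8 of them were below the median of 0.437 per 100 kb. Dmd, the dystrophin gene and the longest of all at 2390 kb, held 1 peak, with a score of 71.6 (chromosome X, 83051199 to 83051729). Long genes on chromosome X together held 1.66 peaks per Mb, against 6.73 on the autosomes. Cntnap2 held 2, Macrod2, Nrxn3 and Fhit 5 each, Ptprd 9 and Lsamp 12. Lrp1b and Csmd1 held none. Dlg2 with 23 peaks, or 1.17 per 100 kb, and Lsamp with 0.55 per 100 kb were above that median. Gpc5, Il1rapl1, Naaladl2, Cntn5, Agbl4, Tenm2 and Cdh12, all over 1 Mb long, also held none.

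Gene lists gave these counts by function. The lists were drawn up with earlier results of these data known, some genes stand in 2 lists, and no list was tested. Each list is read beside the 65.3% of all long genes that held a peak and their 6.49 peaks per Mb. Of 24 long genes of the muscle membrane, sarcomere and nuclear envelope, 21 held a peak, or 87.5% (67.6% to 97.3%), at 10.7 peaks per Mb (9.01 to 12.5). Their median was 1.43 peaks per 100 kb, against 0.437 for all long genes. Lama2, the laminin chain around muscle fibres, held 17 peaks. Palld, the actin bundling protein palladin, held 15. Syne1 and Ank3, an ankyrin, held 11 each. So did Lpp, a focal adhesion protein gene. Utrn, the dystrophin relative utrophin, held 10, Slc8a1 10 and Sntb1, a syntrophin, 9. Ttn held 4 and Neb 3, with no score above 103 in Ttn. Sgcz and Sgcd, which encode sarcoglycans, and Myo18b held none. Lama2, Syne1, Ank3 and Utrn are on chromosome 10. Without that chromosome 17 of 20 held a peak, at 8.39 per Mb (6.81 to 10.2) against 6.24 for all long genes off that chromosome.

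Single genes of this list showed different layouts. In Lama2 the 17 peaks lay 21.0 to 621 kb from the 5′ end, and the highest, with a score of 307, lay 367 kb from it (27249583 to 27250314 on chromosome 10). In Syne1 the 2 strongest peaks, with scores of 597 and 398, lay 440 and 494 kb from the 5′ end, toward the 3′ end of the gene. The start printed above lies between them, under a peak of 65.2. A peak with a score of 233 lay 1.34 kb from the 5′ end of Syne1. In Utrn the highest peak, with a score of 299, lay at 59.8% of the span from the 5′ end, and the other 9 scored 117 or less. In Palld, 5 peaks with scores of 84.1 to 196 lay within 12.1 kb, 120 to 131 kb from the 5′ end. The printed start of Palld lay under a peak with a score of 71.6, and the lowest of its 15 scored 69.9.

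Genes of small GTPase regulators and of actin and microtubule linkers gave a like picture. Of 45 long genes, 40 held a peak, or 88.9% (75.9% to 96.3%), at 10.6 per Mb (9.18 to 12.1). Without chromosome 10 the density was 10.4 per Mb. Pard3b held 16, Palld 15, and Dst and Lpp 11 each. Dst encodes dystonin, which links actin, microtubules and adhesions. Diaph2, Dock2, Dock3, Dock9 and Ablim1 had none.

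Second messenger genes held a peak in 22 of 28 cases, or 78.6% (59.0% to 91.7%), at 9.55 per Mb (7.94 to 11.4). Pde4d held 19, and Prkg1, the cyclic GMP-dependent kinase, and Plcb4, a phospholipase C, 14 each. Plcb1 held 12. Pik3c2g, Pde11a and Camk4 were the longest with none.

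Transcription factors and cofactors held a peak in 34 of 47 cases, or 72.3% (57.4% to 84.4%), at 10.2 per Mb (8.77 to 11.7). Zbtb20 held 19 and Nfia 18. Esr1, Ppargc1a, a coactivator of mitochondrial genes, and Runx2 held 11 each. Mecom held 10. Runx1 and Zfpm2, the gene of the GATA cofactor FOG2, held 9 each. Tead1, which binds DNA with YAP and TAZ, held 8, with scores from 65.6 to 198. The median score of the peaks in this list was 97.1, against 103 for all members. Rora, Dach2 and Tshz2 were the longest with none, and Prdm16, a brown fat regulator, had none either. In this list 10 of the 47 genes also had a peak within 1 kb of one of their own ends. This was so for 62 of all 990 long genes, and for 6 of the 24 in the muscle list. In every other list it was so for 0 to 3 genes. These include 2 of 45 in the GTPase regulator list and 0 of 28 in the second messenger list.

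Neuronal and adhesion genes had lower densities, and their median spans of 599 and 747 kb were longer than the 325 kb of all long genes and the 358 kb of the GTPase regulator list. The part of span in these densities was not tested. Synapse and neuronal genes stand for another cell type. Of 53, 31 held a peak, or 58.5% (44.1% to 71.9%), at 3.64 per Mb (3.07 to 4.28). Besides Dlg2 and Dlgap1, Auts2 held 12 peaks with a highest score of 357, and Celf2 and Dlgap2 held 8 each. The median score in this list was 112. Lrp1b and Csmd1 had none. Among 40 cadherin, immunoglobulin domain and other adhesion genes, 20 held a peak, or 50% (33.8% to 66.2%), at 4.21 per Mb (3.54 to 4.97). Cdh13 held 13, Lsamp 12, Cdh2 11 and Ptprm 10, while Cntn5, Tenm2 and Cdh12 had none. The 11 peaks of Cdh2 scored 62.7 to 585, and 5 of them lay within 16.8 kb (chromosome 18, 16728964 to 16745750).

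The remaining lists also had point densities below the 6.49 per Mb of all long genes. Matrix, integrin and proteoglycan genes held a peak in 20 of 33 cases, or 60.6%, at 6.22 per Mb (4.99 to 7.65). Lama2 led with 17, then Adamtsl3 and Ltbp1, a carrier of latent TGF-beta, with 10 each, and Ext1 with 9. Gpc5, Gpc6 and Hs6st3, all on chromosome 14, had none. Ion channel genes held a peak in 22 of 32 cases, or 68.8%, at 4.92 per Mb (3.84 to 6.21). Itpr2 led with 8 and Cacnb2 held 7. Cacna2d1, Kcnh7 and Cacna1c, the gene of an L-type calcium channel, held 6 each. Trpm3, Kcnq5 and Cacna1e had none. Growth factor and guidance genes held a peak in 19 of 35 cases, or 54.3%, at 4.04 per Mb (3.18 to 5.07). Pdgfd, Sema6d and Sema3a held 8 each, and Bmper and Robo1 6 each, while Dcc, Epha6 and Nell1 had none. Genes known for common fragile sites held a peak in 14 of 18 cases, or 77.8%, but at 3.57 per Mb (2.87 to 4.39), with a median span of 1397 kb. Dlg2 and Auts2 stand in this list too, Ctnna3 held 9, and Naaladl2 had none. Repeated scores made up 34.8% of the peaks in the fragile site list and 18.2% in the transcription factor list, against 26.7% of all members.

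**Figure D5:**
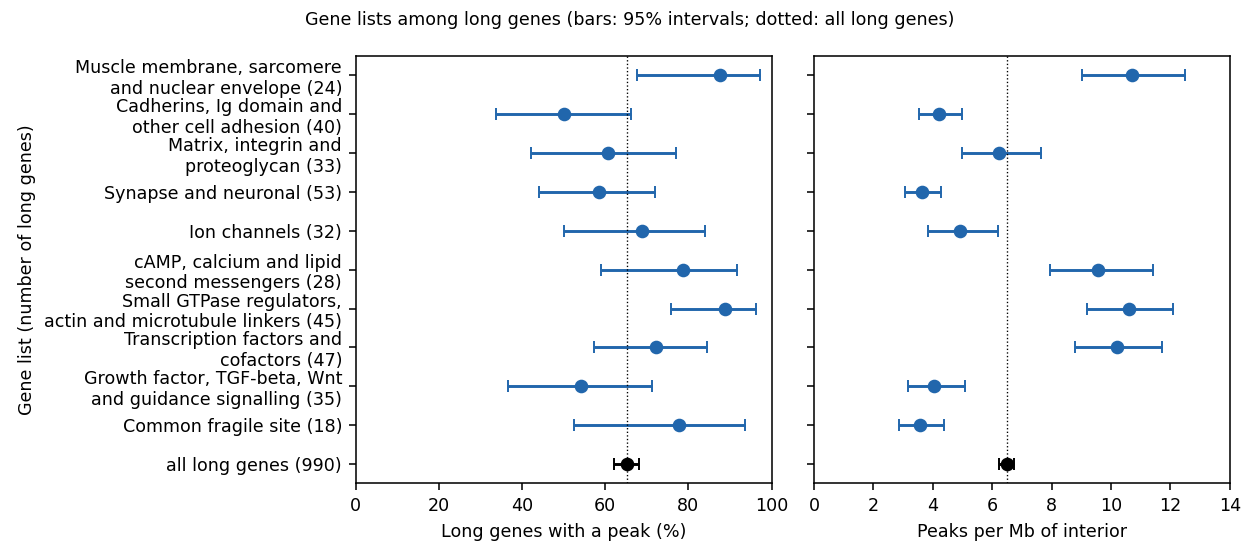
Share of long genes with a peak in % (left) and peaks per Mb of interior (right) for 10 gene lists and all long genes, with 95% exact binomial and Poisson intervals for counting error and the value of all long genes dotted. The muscle list (10.7 per Mb) and the GTPase regulator list (10.6 per Mb) are highest and the fragile site list (3.57 per Mb) is lowest in density.

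Members lay along the whole length of the genes. The promoter table gave no strand for some long genes, and these are left out of the values by 5′ or 3′ end. Among them are the long genes of chromosome 18, and also Nav3, Cdh13, Auts2 and Ank3. The table gave the strand of 744 of the 990 genes, which hold 2059 members, or 76.9%. The 20% of the span next to the 5′ end held 369 of these, or 17.9% (16.3% to 19.6%), at 5.86 per Mb (5.28 to 6.49). The 20% next to the 3′ end held 444, or 21.6% (19.8% to 23.4%), at 7.08 per Mb (6.44 to 7.77). Median scores were 97.6 and 106 there. By distance, the first 10 kb from the 5′ end had 56 peaks, or 8.60 per Mb (6.50 to 11.2), and the part beyond 400 kb had 4.93 per Mb (4.46 to 5.43). The classes between 10 and 400 kb had 6.09 to 7.78 per Mb. Only genes over 400 kb reach the last part, and their whole interiors held 6.22 per Mb up to 800 kb and 3.51 above. Distance and gene span are thus mixed here, and the part of each was not tested. The median distance from a member to the nearest gene end was 50.1 kb, with quartiles of 20.0 and 99.4 kb and a maximum of 847 kb. The 388 members between 1 and 10 kb from a gene end had a median score of 97.0, and the 662 over 100 kb away had 104.

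Neighbouring peaks of a gene were often close together. Of the members, 2525 (94.3%) shared their gene with another, and the median distance to the next was 17.1 kb. A neighbour in the same gene lay within 10 kb for 930 members, or 34.7% (32.9% to 36.6%), against 33.6% (32.3% to 34.9%) of peaks inside shorter genes. Chains of 3 or more with gaps of at most 10 kb numbered 96. The longest had 6 peaks and lay in Zbtb20 within 15.8 kb (chromosome 16, 43502962 to 43518773), with scores from 58.9 to 214. Chains of 5 lay in Cdh2, Stard13, Cubn, Hecw1, Arhgap26, Palld and Sdccag8. In Arhgap26 they spanned 9.05 kb, and 4 peaks in Msi2, which encodes an RNA-binding protein, spanned 3.86 kb.

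Few long genes also had a peak at their own ends. A peak centre lay within 1 kb of an own end in 56 of the 646 genes with a member, or 8.67% (6.61% to 11.1%). In the 344 genes with none this was so for 6, or 1.74% (0.643% to 3.76%). The median spans of these groups were 327 and 323 kb. With 1 member the share was 6.49% (3.16% to 11.6%), with 2 to 4 it was 7.94% and with 5 or more 11.2% (7.28% to 16.2%). Lama2, Utrn, Cdh2, Esr1, Runx1, Ttn, Ank3 and Zbtb20 had peaks both inside and at an end. Dock3, Ehbp1, Maml2, Pola1, Spata17 and Tcf4 had peaks at an end alone.

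Density inside long genes varied by chromosome. It was 10.7 per Mb (9.41 to 12.1) on chromosome 10 and 1.66 per Mb (1.14 to 2.33) on chromosome X, where 33 members had a median score of 84.3. Over the autosomes it was 6.73 per Mb, and on chromosome 14 it was 3.06 per Mb (2.40 to 3.84). Shorter genes had 15.8 per Mb on chromosome 10, 5.80 on chromosome 14 and 1.82 on chromosome X. The long genes were below the shorter ones in point value on each of these 3 chromosomes. Only 17 members were held by more than 1 protein coding gene, and 149 (5.56%) also lay inside a lncRNA gene.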

How the data were processed

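Per the labels, chromatin of both libraries was fixed with 1% formaldehyde and sheared to 200 to 500 bp, and products of 250 to 300 bp were read as pairs of 150 bp. The submitters' processing notes name CASAVA 1.8, Bowtie and GRCm38 (mm10). MACS was run in Galaxy, per the file header. What these sources do not give is the version of MACS or Bowtie, the threshold, how duplicates were handled and whether the IgG reads served as control. Each peak's score is the MACS value deposited by the authors, in 1 list of 17539 peaks. Read depth is unknown. Starts were converted to 1-based positions.

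Genes came from a RefSeq table of GRCm38.p6, and strands, starts and sequences from RefSeq promoter and microRNA tables of that build. The interior of a gene is its span more than 1 kb from all ends of protein coding and lncRNA genes, and a peak counts for the longest gene that holds its centre. Python 3.11.15, pandas 2.3.3 and SciPy 1.17.1 gave 95% exact intervals. Assignment and densities were tested on simulated data. The main summaries were recomputed with other limits of span, distance, score and chromosome. They were the number of members, the density ratio, the median score and width, and the share of long genes with a peak. The share near the 5′ end, the spacing and the gene list values were recomputed too. Values for covered starts, motifs, microRNA genes, own ends, chains and the rank correlation were not. No genome sequence was used, so the planned motif search in the peaks was not run. The members and lists were chosen with earlier results of these data known. Genes were named by rule: the 20 highest peaks, the 15 genes with the most peaks with ties, the 10 densest with at least 5, the 10 longest, and up to 4 with most and 3 longest with no peaks per list, and those nearest to the limits of the rule; others were named after their values were seen. Some genes that meet the rule are not reported here.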

Additional observations from a re-analysis of the deposited data

How the results depend on the processing

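No paired analysis was possible because there was 1 library per antibody. The ratio of peak density in long to shorter genes, 0.707, was 0.878 with spans of 100 kb or more, 0.550 with 400 kb or more, 0.665 over 10 kb from gene ends and 0.747 for peaks above the median score, and stayed below 1 under every alternative run. The number of members was 4580, 1209 and 1401 for spans of 100 kb and 400 kb and for peaks above the median score. The share of long genes with a peak was 59.9% at 100 kb, 61.5% over 10 kb from gene ends, 51.7% above the median score and 58.7% without peaks of a repeated score. Above the median score the median score was 138, the median width 794 bp and the share with a neighbour within 10 kb 22.2%. Without repeated scores the width was 811 bp and that share 29.3%. It was 31.3% for spans of 400 kb or more, 24.1% within 5 kb and 55.2% within 25 kb. The share near the 5′ end was 15.9% for spans of 400 kb or more, and 12.9% of members lay within 50 kb of that end. These alternatives change the limits or the number of peaks, and why the values moved was not tested. For the gene lists, 69 recomputed shares stayed within the interval of the reported share, and 1 did not: that of second messenger genes was 100% for spans of 400 kb or more. The 59 other recomputed summary values stayed within the interval of the reported value, or within 1.5 times the reported count. Autosomes only, list densities per Mb without chromosome 10 or from peaks above the median score, and the runs without repeated scores were chosen after seeing the data. Depth is unknown, so a gene without a peak has none called, which does not show that GATA4 was absent there. The motif search in peaks, and in 200 bp around their centres, was not run.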
